A study of Mus musculus with 9 samples.

Results

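The Eph receptors examined here are 10 genes, *Epha1*, *Epha2*, *Epha3*, *Epha4*, *Epha7*, *Epha8*, *Ephb2*, *Ephb3*, *Ephb4*, and *Ephb6*, chosen by their symbols from the 25239 gene symbols counted in each library. Of the 10, 9 had enough reads to be tested, and *Epha3* did not. RNA was sequenced from mouse E14 embryonic stem cells (ESCs), strain label 12910la, grown with serum and leukemia inhibitory factor, in 3 lines with 3 libraries each. The control line is *Rbbp4*+/+. The *Rbbp4* Ins/Ins line carries a small in-frame insertion on both alleles of *Rbbp4*, which encodes a histone-binding subunit shared by several chromatin complexes. The *Rbbp4* Ins/Del line carries that insertion on one allele and an in-frame deletion on the other. Each mutant line is 1 clone isolated after CRISPR-Cas9 editing, so the effect of a genotype and of its clone cannot be told apart. The labels do not say whether the libraries of a line came from separate cultures, so p-values measure the spread between these libraries, which may be technical. *Rbbp4* itself, whose alleles are altered and not removed, had 10004.7 ± 99.1 normalized counts (SD, n = 3) in control, 5604 ± 153 (SD, n = 3) in Ins/Ins, and 10359 ± 238 (SD, n = 3) in Ins/Del. These are RNA counts, and by Western blot the study reported lower levels of the mutant RBBP4 proteins than in control.

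Eph receptors are receptor tyrosine kinases that bind ephrins, ligands held in the membrane of a neighbouring cell, so that contact between cells can signal in both directions. EphA receptors mainly bind ephrin-A ligands, which are anchored to the membrane by a lipid, and EphB receptors mainly bind ephrin-B ligands, which span it, while EphA4 binds ligands of both classes. The family is best known for guiding axons and for setting boundaries between tissues in the embryo, and EphA2 has been studied in ESCs for a part in the exit from pluripotency.

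The upstream sequences of 4 receptors hold between 9 and 46 CpG dinucleotides. *Epha4* was the receptor that rose most in both mutants, *Epha1* and *Epha8* fell in both, and *Epha2* had the highest level in every line. The sequences of *Epha7* and *Ephb4*, which also fell in both, are not printed. Each sequence holds the 250 bases before the annotated start, 5′ to 3′ in the direction of the gene, from RefSeq on GRCm38.p6, with CpG dinucleotides in capitals. The *Epha4* sequence is at chr1:77515089-77515338 on the minus strand, that of *Epha1* at chr6:42373269-42373518 on the minus strand, that of *Epha8* at chr4:136956817-136957066 on the minus strand, and that of *Epha2* at chr4:141300971-141301220 on the plus strand.
Epha4: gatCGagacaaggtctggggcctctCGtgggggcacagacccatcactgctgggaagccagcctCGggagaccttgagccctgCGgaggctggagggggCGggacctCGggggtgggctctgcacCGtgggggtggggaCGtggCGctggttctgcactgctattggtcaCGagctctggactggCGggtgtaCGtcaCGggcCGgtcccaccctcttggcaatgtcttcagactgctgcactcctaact
Epha1: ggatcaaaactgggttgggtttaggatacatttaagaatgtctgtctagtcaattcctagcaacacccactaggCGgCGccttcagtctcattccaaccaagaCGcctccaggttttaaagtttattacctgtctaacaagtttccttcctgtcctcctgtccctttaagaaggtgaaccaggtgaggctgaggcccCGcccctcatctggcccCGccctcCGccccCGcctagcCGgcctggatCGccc
Epha8: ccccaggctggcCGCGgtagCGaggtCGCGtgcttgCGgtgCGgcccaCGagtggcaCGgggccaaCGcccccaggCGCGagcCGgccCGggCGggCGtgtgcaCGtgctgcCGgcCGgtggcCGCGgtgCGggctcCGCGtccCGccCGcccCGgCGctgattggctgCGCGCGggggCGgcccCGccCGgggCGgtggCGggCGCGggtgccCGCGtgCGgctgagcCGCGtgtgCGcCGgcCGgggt
Epha2: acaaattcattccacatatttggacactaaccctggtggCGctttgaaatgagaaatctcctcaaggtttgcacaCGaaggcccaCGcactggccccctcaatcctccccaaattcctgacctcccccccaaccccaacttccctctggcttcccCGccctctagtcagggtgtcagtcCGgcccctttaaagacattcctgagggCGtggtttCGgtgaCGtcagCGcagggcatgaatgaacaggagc

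The printed stretch holds 46 CpG dinucleotides in *Epha8*, 14 in *Epha4*, and 9 each in *Epha1* and *Epha2*. All 10 receptors matched the promoter table, with 11 promoters because *Epha7* has 2, each read from 250 bases before to 50 bases after the start. The 2 *Epha7* promoters overlap, at chr4:28812881-28813180 and chr4:28812895-28813194, so that gene counts 2 times among the 11. Their median CpG count was 23, against 7 over the 32841 promoters of that length, and their median GC share was 66.3%, against 52.7%. The ratio of observed to expected CpG ran from 0.460 in *Epha2* and 0.484 in *Ephb4* to 1.06 in *Epha8*, and 7 of the 11 promoters reached 0.6, as did 35.8% of all promoters. A link between CpG content and the direction of change was not tested. Among the receptors that fell in both mutants, the ratio was 1.06 in *Epha8*, 0.833 and 0.819 in *Epha7*, 0.572 in *Epha1*, and 0.484 in *Ephb4*. *Epha4* and *Ephb2*, which rose in both, had 0.565 and 0.681, and *Ephb3*, called higher in Ins/Ins alone, had 0.692. Searched on both strands, GGGCGG was present in 9 of the 11 promoters (35.7% of all promoters), CCAAT in 6 (37.4%), and TATAAA in 0 (13.6%). CACGTG was found in *Epha8* alone (7.15% of all promoters) and TTTGAA in *Epha2* alone (17.9%), and TTTCCCGC (1.07%) and ATTTGCAT (1.74%) in none of the 11. No motif contains another.

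In control ESCs the receptors spanned a wide range of levels, dominated by 1 of them. Levels of different genes are given as CPM (counts scaled to the size of the library) per kilobase of exon. *Epha2* had 62.2 ± 3.31 (SD, n = 3) in control, followed by *Ephb4* with 11.5 ± 0.497, *Epha1* with 7.78 ± 0.264, *Epha4* with 6.64 ± 0.149, *Ephb3* with 4.41 ± 0.164, and *Ephb2* with 2.27 ± 0.0606. *Ephb6*, *Epha7*, and *Epha8* were each below 1, at 0.879 ± 0.172, 0.793 ± 0.0633, and 0.752 ± 0.0816, and the library ranges of *Ephb6* and *Epha7*, and of *Epha7* and *Epha8*, overlapped. All other neighbours in this order were separated in every library.

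The order changed in the mutants, where *Epha4* stood second after *Epha2* in all 6 libraries. *Epha4* reached 19.3 ± 0.356 (SD, n = 3) in Ins/Ins and 25.2 ± 0.159 (SD, n = 3) in Ins/Del on the per-kilobase scale, and its share of the summed level of the 10 receptors went from 6.83% in control to 21.6% and 24.7%. *Epha2* held 63.9% of the sum in control, 58.5% in Ins/Ins, and 59.6% in Ins/Del. The ratio of *Epha2* to *Epha4* per kilobase was 9.94, 9.19, and 8.96 in the control libraries, 2.81, 2.75, and 2.58 in Ins/Ins, and 2.55, 2.40, and 2.30 in Ins/Del. *Epha1* dropped from the third to the sixth place, with 2.36 ± 0.200 in Ins/Ins and 2.02 ± 0.112 in Ins/Del. *Ephb4* and *Ephb3* were next to each other with overlapping library ranges in both mutants, at 5.32 ± 0.0331 and 5.29 ± 0.169 in Ins/Ins and at 4.60 ± 0.357 and 4.99 ± 0.263 in Ins/Del. With the longest transcript as the gene's length, *Ephb3* was above *Ephb4* in Ins/Ins as well, at 7.39 against 5.69.

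The summed level of the family moved far less than its makeup. It was 97.3 ± 4.08 CPM per kilobase (SD, n = 3) in control, 89.1 ± 1.25 in Ins/Ins, and 102 ± 4.43 in Ins/Del, and the libraries of control and Ins/Del overlapped. Without *Epha2* and *Epha4* the sum was 28.4 ± 0.769 in control, 17.7 ± 0.287 in Ins/Ins, and 16.1 ± 0.887 in Ins/Del. The 4 EphB receptors together made up 19.7% of the family sum in control, 16.7% in Ins/Ins, and 13.2% in Ins/Del.

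**Figure D1:**
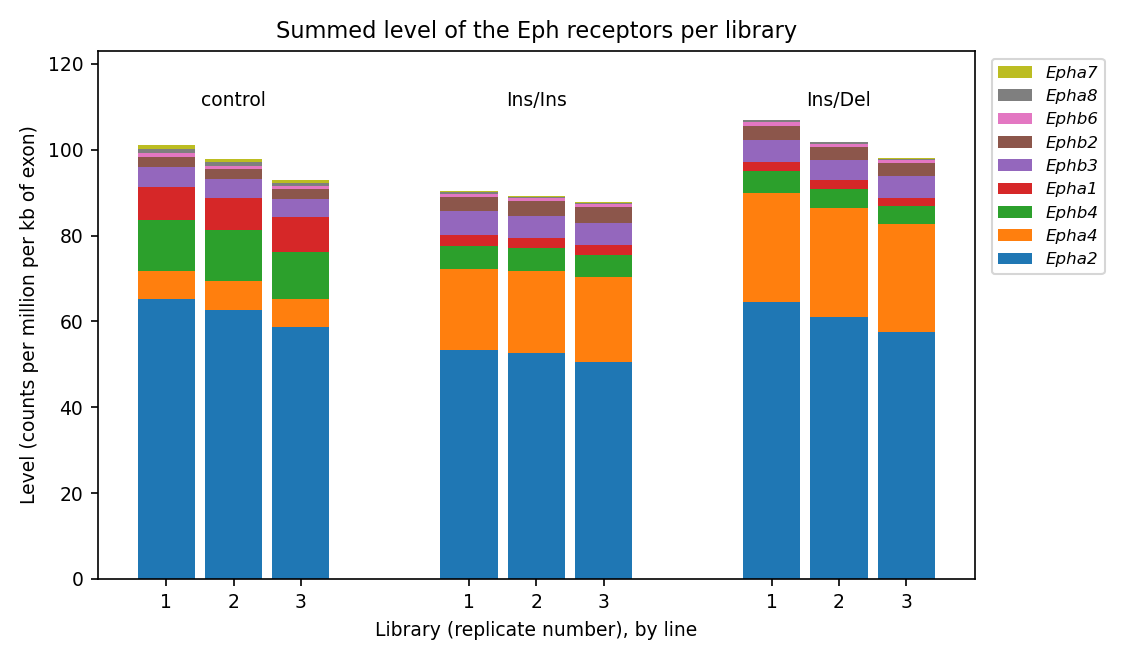
Stacked levels of the Eph receptors in each of the 9 libraries, in CPM per kilobase of exon, with 1 bar per library and 1 colour per receptor. *Epha2* is the largest block in every bar, and the *Epha4* block widens from 6.83% of the sum in control to 21.6% in Ins/Ins and 24.7% in Ins/Del while those of *Ephb4* and *Epha1* narrow.

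Values from here on are normalized read counts, that is, counts scaled to a common library size, unless a level per kilobase is named. Every fold change and p-value comes from 1 quasi-likelihood fit in edgeR, with Benjamini-Hochberg adjustment of the p-values of all 14125 tested genes, and a gene was called higher or lower at an adjusted p of at most 0.01. Both mutants were compared with the same 3 control libraries. In bulk RNA, fewer cells that express a gene and less RNA per cell cannot be told apart.

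*Epha4*, the receptor that binds ephrins of both classes, rose in both mutants. It had 963, 1000.4, and 961 normalized counts in control, 2785, 2812, and 2886 in Ins/Ins, and 3716, 3726, and 3682 in Ins/Del. Every mutant library was above every control library, and every Ins/Del library above every Ins/Ins library. The increase was 2.90-fold in Ins/Ins, a log2 fold change of 1.54 ± 0.037 (SE; edgeR adjusted p = 2.4e-30), and 3.80-fold in Ins/Del, 1.93 ± 0.037 (SE; edgeR adjusted p = 8.0e-34).

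*Epha2*, the most abundant receptor, changed little. It had 5560.4, 5338, and 5001 normalized counts in control, 4543, 4479.9, and 4315 in Ins/Ins, and 5508, 5201, and 4904 in Ins/Del. The Ins/Ins libraries lay below all control libraries, and those of Ins/Del overlapped with control. *Epha2* was 16.1% lower in Ins/Ins, a log2 fold change of −0.25 ± 0.037 (SE; edgeR adjusted p = 1.2e-07). In Ins/Del the log2 fold change was −0.03, with a 95% interval from −0.10 to 0.05 (edgeR adjusted p = 0.519).

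*Epha1*, the founding member of the family and a receptor of epithelia, fell in both mutants. It had 551, 542, and 578 normalized counts in control, 185, 167, and 156 in Ins/Ins, and 150.3, 148, and 135 in Ins/Del. Control stood apart from both mutants. The log2 fold changes were −1.71 ± 0.080 (SE; edgeR adjusted p = 4.6e-21), or 3.27-fold lower, in Ins/Ins and −1.94 ± 0.083 (SE; edgeR adjusted p = 1.7e-22), or 3.84-fold lower, in Ins/Del. *Zyx*, which encodes the focal adhesion protein zyxin, lies on the opposite strand and overlaps 6.01% of the exonic length of *Epha1*. *Zyx* went from 1081 ± 24.5 normalized counts (SD, n = 3) in control to 299.7 ± 16.6 in Ins/Ins and 244 ± 13.2 in Ins/Del. The strand setting of the counting is not given in the sources used here, so the part of the *Epha1* change that reads of *Zyx* carry was not tested.

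*Epha7*, which has a part in neural tube closure and cortical wiring, fell in both mutants from a lower level. Its normalized counts were 155, 132, and 142 in control, 38.5, 40.6, and 29.6 in Ins/Ins, and 34.8, 30.7, and 40.5 in Ins/Del. The mutants overlapped with each other and not with control. *Epha7* was 3.94-fold lower in Ins/Ins, a log2 fold change of −1.98 ± 0.16 (SE; edgeR adjusted p = 5.3e-14), and 4.09-fold lower in Ins/Del, −2.03 ± 0.16 (SE; edgeR adjusted p = 2.8e-14). Full-length and truncated forms of the receptor share a gene and were counted together.

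*Epha8*, a receptor of the developing midbrain, had 72.7, 61.8, and 59.5 normalized counts in control, 23.9, 20.3, and 24.3 in Ins/Ins, and 36.8, 27.1, and 28.9 in Ins/Del. All 6 mutant libraries were below all control libraries. *Epha8* was 2.82-fold lower in Ins/Ins (log2 fold change −1.50 ± 0.21, SE; edgeR adjusted p = 6.6e-08) and 2.11-fold lower in Ins/Del (−1.07 ± 0.20, SE; edgeR adjusted p = 9.0e-06). The study listed *Epha8* among genes that changed in opposite directions in the *Rbbp4* mutants and in *Eed* knockout ESCs, a list chosen on these libraries, so its direction is not independent evidence.

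*Epha3* was close to absent in all 3 lines. It had 0 reads in every control library, 1, 0, and 1 reads in the Ins/Ins libraries, and 0, 0, and 4 reads in the Ins/Del libraries. The 0 reads in control allow a level of up to 0.0543 CPM over the 3 libraries together, for counting error only, and no fold change is given.

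Among the EphB receptors, *Ephb4* fell while *Ephb2* rose. *Ephb4*, the receptor paired with ephrin-B2 in the sorting of arteries and veins, had 1006, 996, and 929 normalized counts in control, 452, 451, and 447 in Ins/Ins, and 424, 375, and 369 in Ins/Del. Each mutant lay below control in every library. The log2 fold changes were −1.12 ± 0.059 (SE; edgeR adjusted p = 1.5e-19), or 2.17-fold lower, in Ins/Ins and −1.33 ± 0.060 (SE; edgeR adjusted p = 1.2e-21), or 2.51-fold lower, in Ins/Del.

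*Ephb2*, which takes part in axon guidance and in positioning cells along the intestinal crypt, had 535, 526, and 508 normalized counts in control, 786, 803, and 882 in Ins/Ins, and 759.5, 717, and 703 in Ins/Del. The mutants were above control in every library. The increase was 1.57-fold in Ins/Ins, a log2 fold change of 0.65 ± 0.058 (SE; edgeR adjusted p = 1.1e-12), and 1.39-fold in Ins/Del, 0.47 ± 0.059 (SE; edgeR adjusted p = 4.4e-09).

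*Ephb3*, which acts with *Ephb2* in the intestinal crypt, had 557, 526, and 521 normalized counts in control, 660.3, 641, and 619 in Ins/Ins, and 636, 572, and 604 in Ins/Del. The lowest library of each mutant was above the highest control library. *Ephb3* rose 1.20-fold in Ins/Ins, a log2 fold change of 0.26 ± 0.059 (SE; edgeR adjusted p = 2.3e-04). In Ins/Del the log2 fold change was 0.17, with a 95% interval from 0.05 to 0.29, and just missed the threshold (edgeR adjusted p = 0.0114). It passed without control library 1 (0.20, edgeR adjusted p = 0.00842), without Ins/Ins library 1 (0.18, edgeR adjusted p = 0.00683), and without Ins/Del library 2 (0.21, edgeR adjusted p = 0.00581).

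*Ephb6*, which lacks kinase activity, had 71.0, 62.9, and 47.6 normalized counts in control, 49.6, 42.9, and 43.3 in Ins/Ins, and 55.2, 46.9, and 48.6 in Ins/Del. All 3 lines overlapped. The log2 difference from control was −0.42 in Ins/Ins, with a 95% interval from −0.80 to −0.05 (edgeR adjusted p = 0.0417), and −0.28 in Ins/Del, with an interval from −0.65 to 0.08 (edgeR adjusted p = 0.16). Neither passed the threshold.

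**Figure D2:**
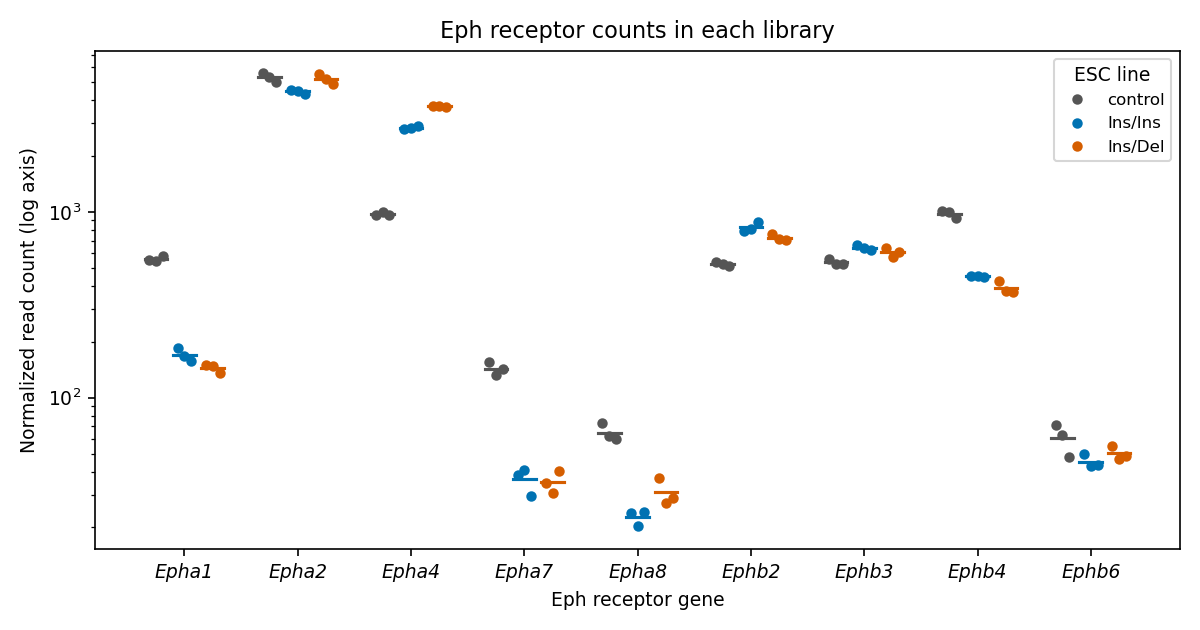
Normalized read counts of the 9 tested Eph receptors on a log axis, with 1 point per library and a line at the mean of each of the 3 lines. *Epha4*, *Ephb2*, and *Ephb3* lie above control in all 6 mutant libraries, *Epha1*, *Epha7*, *Epha8*, and *Ephb4* lie below it, and the 3 lines overlap in *Ephb6*.

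Counted over the family, receptors were called in both directions in each mutant. In Ins/Ins, 3 of the 9 tested receptors were higher (*Epha4*, *Ephb2*, and *Ephb3*) and 5 were lower (*Epha1*, *Epha2*, *Epha7*, *Epha8*, and *Ephb4*), while 29% and 29.4% of all tested genes were called higher and lower. In Ins/Del, 2 were higher (*Epha4* and *Ephb2*) and 4 were lower (*Epha1*, *Epha7*, *Epha8*, and *Ephb4*), while the shares of all tested genes were 30.6% and 31.9%. Whether these counts of 9 receptors differ from those shares was not tested. The libraries of control and mutant did not overlap in 8 of the 9 receptors in Ins/Ins and in 7 of the 9 in Ins/Del, as in 69.1% and 72.8% of all tested genes.

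The median size of the receptors' changes was above that of all tested genes. The receptors were chosen with earlier results of these data known, so this size is not independent evidence about the family. *Epha4* was more than 2-fold higher in both mutants, as were 6.58% of all tested genes, and *Epha1*, *Epha7*, *Epha8*, and *Ephb4* were more than 2-fold lower in both, as were 8.1%. The median absolute log2 fold change of the 9 receptors was 1.12 in Ins/Ins and 1.07 in Ins/Del, and that of all tested genes was 0.30 and 0.34. The median signed log2 fold change of the receptors was −0.42 and −0.28, beside 0.004 and −0.01 over all tested genes. Tested against a 2-fold change itself, the receptors called were *Epha4*, *Epha1*, and *Epha7* in Ins/Ins and those with *Ephb4* in Ins/Del, so the call ended for *Epha8* in both and for *Ephb4* in Ins/Ins.

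**Figure D3:**
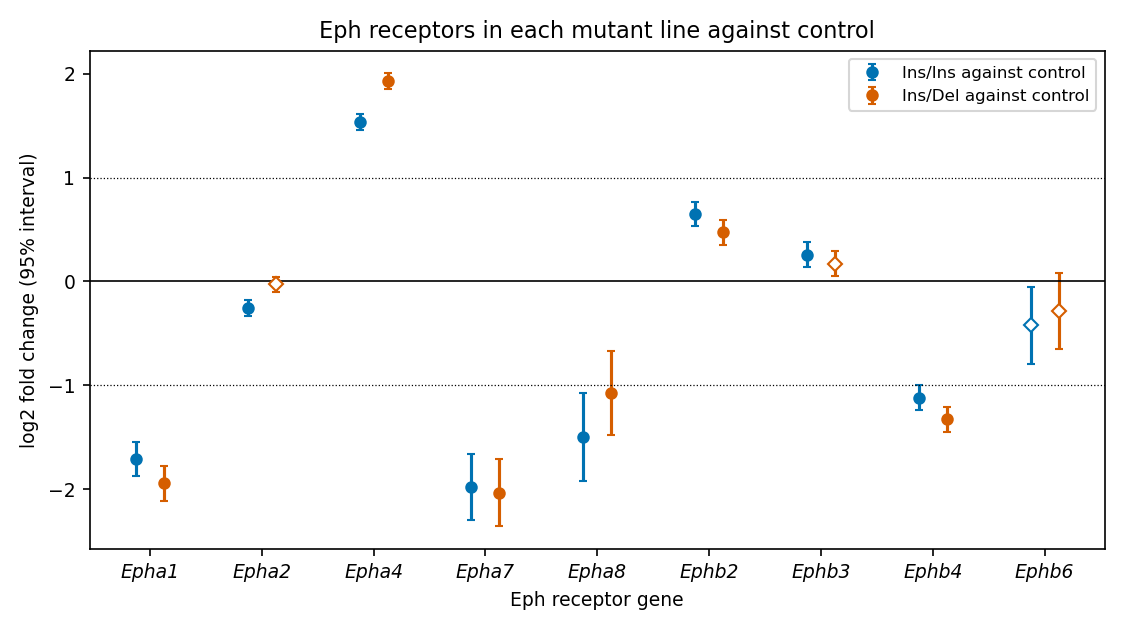
log2 fold change of each tested Eph receptor against control in Ins/Ins and Ins/Del, with 95% intervals. Filled circles passed an adjusted p of 0.01, open diamonds did not, and dotted lines mark a 2-fold change. *Epha4* is the receptor above the upper dotted line and *Epha1*, *Epha7*, *Epha8*, and *Ephb4* lie below the lower one in both mutants.

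Compared directly with Ins/Ins, Ins/Del had higher *Epha4* and *Epha2*, and no other receptor was called. *Epha4* was 1.31-fold higher in Ins/Del, a log2 difference of 0.39 with a 95% interval from 0.33 to 0.46 (edgeR adjusted p = 8.9e-12). *Epha2* was higher by 0.23 on the log2 scale, with an interval from 0.15 to 0.30 (edgeR adjusted p = 1.3e-05). Of all tested genes, 6.17% were called higher and 4.64% lower in this comparison. The libraries of the mutants did not overlap in 6 of the 9 receptors, with *Epha2*, *Epha4*, and *Epha8* higher and *Epha1*, *Ephb2*, and *Ephb4* lower in Ins/Del, and this was so for 34.1% of all tested genes.

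The receptors that missed the threshold between the mutants had intervals of unequal width. The log2 difference of *Ephb2* was −0.18, from −0.29 to −0.07 (edgeR adjusted p = 0.0197), that of *Ephb4* was −0.21, from −0.35 to −0.07 (edgeR adjusted p = 0.0251), and that of *Epha1* was −0.23, from −0.44 to −0.03 (edgeR adjusted p = 0.107). Without Ins/Del library 1, *Ephb4* passed with a log2 difference of −0.27 (edgeR adjusted p = 0.00929). *Ephb3* had a narrow interval around a small difference of −0.09, from −0.21 to 0.03 (edgeR adjusted p = 0.324). For the low receptors the intervals were wide, from −0.48 to 0.37 for *Epha7*, from −0.07 to 0.92 for *Epha8*, and from −0.25 to 0.53 for *Ephb6*. Any difference within its interval is compatible with these counts at the 95% level.

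**Figure D4:**
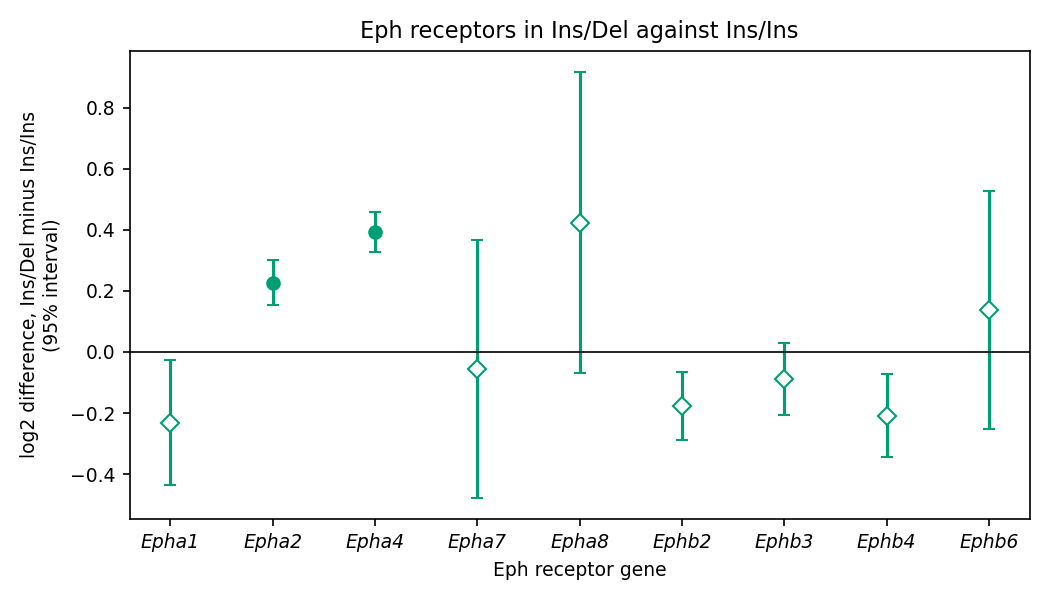
log2 difference of each tested Eph receptor, Ins/Del minus Ins/Ins, with 95% intervals. Filled circles, *Epha2* at 0.23 and *Epha4* at 0.39, passed an adjusted p of 0.01, and open diamonds did not.

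The ligands of the receptors were lower or not called. Of the 8 ephrins, all tested, 4 were lower and 0 higher in Ins/Ins, and 5 lower and 0 higher in Ins/Del, with *Efna5* at −3.22 and −2.90, *Efnb2* at −2.01 and −1.55, *Efnb1* at −1.41 and −1.96, *Efna3* at −1.14 and −1.02, and *Efna4* lower in Ins/Del alone at −0.53, on the log2 scale. Of all tested genes, 29.4% were called lower and 29% higher in Ins/Ins, and 31.9% lower and 30.6% higher in Ins/Del. *Ephb4* and its partner *Efnb2* thus both fell in each mutant, and *Epha4* rose where ephrins of both classes fell.

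Of the genes that act with or downstream of Eph receptors, more were lower than higher. Of the 39 listed, 38 were tested, and in Ins/Ins 4 were higher and 20 lower, in Ins/Del 5 higher and 22 lower. The shares of all tested genes called higher and lower were 29% and 29.4% in Ins/Ins and 30.6% and 31.9% in Ins/Del. In both mutants 19 were lower, as were 26.7% of all tested genes, and 4 were higher, as were 25.6%. Those higher in both were *Adam10*, the protease that sheds ephrins and Eph receptors from the cell surface, the guanine nucleotide exchange factor *Kalrn*, the Src family kinase *Fyn*, and the phosphatase *Acp1*, named after their values were seen. Their log2 fold changes were 0.53 and 0.75, 0.63 and 1.00, 0.38 and 0.38, and 0.49 and 0.51, in Ins/Ins and Ins/Del.

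More than 2-fold lower in both mutants were *Sh2d3c* and *Mmp14*. *Sh2d3c*, an adaptor that binds Eph receptors, went from 132 ± 13.3 normalized counts (SD, n = 3) in control to 60.6 ± 3.92 in Ins/Ins and 42.1 ± 8.08 in Ins/Del, with log2 fold changes of −1.12 (edgeR adjusted p = 1.2e-08) and −1.63 (edgeR adjusted p = 6.3e-12). *Mmp14*, a membrane protease that can cleave EphA2, went from 792 ± 72.4 to 197 ± 10.9 and 215 ± 6.89, with −2.01 (edgeR adjusted p = 3.4e-24) and −1.88 (edgeR adjusted p = 1.4e-23). *Mmp14* lies on chromosome 14, where 24.9% of the 461 tested genes were more than 2-fold lower in both mutants, against 8.1% of all tested genes. None of the 10 receptors lies on that chromosome.

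**Figure D5:**
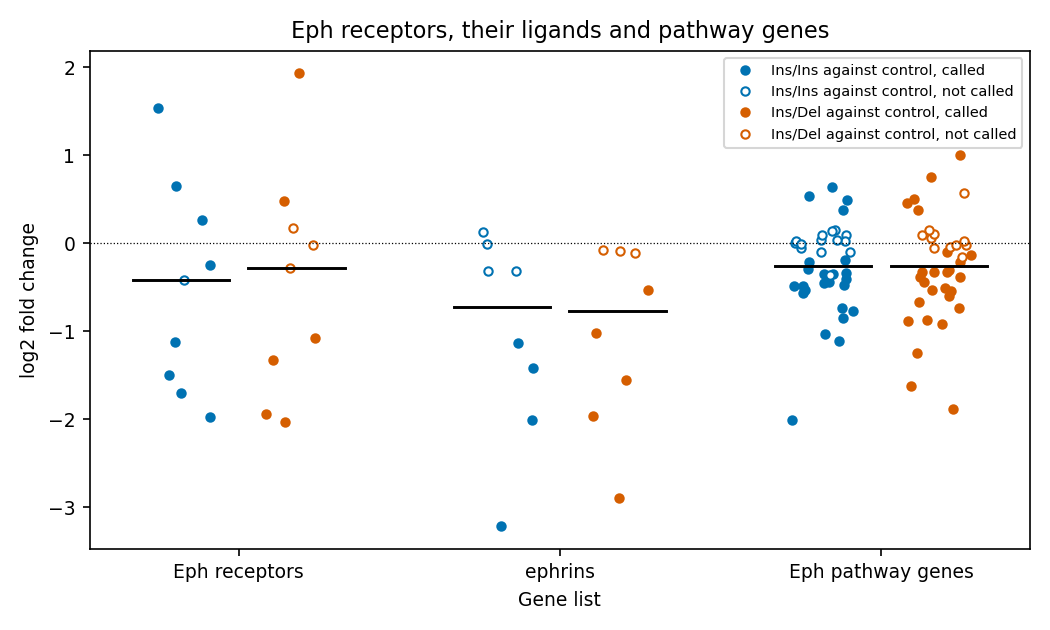
log2 fold changes against control of the tested Eph receptors (9), ephrins (8), and Eph pathway genes (38) in both mutants, with 1 point per gene and a line at the median. The receptors spread on both sides of 0, no ephrin was called higher, and the median of the pathway genes is −0.26 in each mutant.

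The receptors lie on 5 chromosomes, 4 of them on chromosome 4. In GRCm38 (GENCODE M21), *Ephb2* lies at chr4:136647539-136835988 and *Epha8* at chr4:136929419-136956816, both on the minus strand and 93.4 kb apart, and no other tested protein-coding gene lies between them. These adjacent receptors changed in opposite directions in both mutants. *Zbtb40*, 22.9 kb beyond *Epha8*, was higher by 0.80 in Ins/Ins and 0.78 in Ins/Del on the log2 scale, as was *Ephb2*, while *Kdm1a*, 44.8 kb beyond *Ephb2*, had 0.01 and 0.08. *Epha2* is at chr4:141301240-141329384 and *Epha7* at chr4:28813131-28967499, both on the plus strand.

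*Epha4*, at chr1:77367185-77515088 on the minus strand, is isolated, with its nearest tested protein-coding genes *Farsb* 903 kb and *Slc4a3* 1805 kb away. Their log2 fold changes were 0.13 and −0.30 in Ins/Ins and 0.17 and −0.62 in Ins/Del, where *Epha4* had 1.54 and 1.93. *Ephb4* is at chr5:137350109-137378669 on the plus strand, 16.5 kb from *Slc12a9*, which had −0.01 in Ins/Ins and 0.05 in Ins/Del. On its other side, *Pop7*, 123 kb away, had 0.29 and 0.26. *Epha1* is at chr6:42358487-42373268 on the minus strand, and its nearest neighbour that does not overlap it, *Fam131b*, 33.8 kb away, was lower in both, with log2 fold changes of −1.76 and −1.36. *Tcaf2*, 250 kb away on the other side, was also lower in both, at −1.09 and −0.74. *Ephb6* is at chr6:41605482-41620509 on the plus strand, *Ephb3* at chr16:21204755-21223305 on the plus strand, and *Epha3* at chr16:63543534-63864175 on the minus strand. Beside *Epha7*, *Manea* had −0.99 in Ins/Ins and −1.01 in Ins/Del, and *Map3k7* had 0.15 and 0.14. Beside *Ephb3*, *Chrd* had −1.11 and −0.95, and *Vps8* had −0.03 and −0.04. Neighbours of *Epha2*, *Epha3*, and *Ephb6* are not given. The neighbours were chosen by distance after the receptors' values were seen.

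The profile of *Epha4* over the 9 libraries was closest to those of *Lgals3*, *Zscan4c*, and *Morc1*, by the Euclidean distance of log2 CPM centred on each gene's mean. The distances were 0.131, 0.171, and 0.192, and 15 genes lay within 2 times the smallest. *Lgals3* had log2 fold changes of 1.58 in Ins/Ins and 1.91 in Ins/Del, *Zscan4c* 1.52 and 1.93, and *Morc1* 1.55 and 1.82. *Zscan4c* belongs to a cluster of near-identical genes, so its count is uncertain. *Epha2* was closest to *Peli2*, *Grk6*, and *Jmjd4*, at 0.151, 0.168, and 0.173, but 288 genes lay within 2 times the smallest distance.

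Markers of other cell types also moved between the lines. The 10 ESC markers were each detected. Their summed normalized counts ranged from 98106 to 101618 in control, 105683 to 106286 in Ins/Ins, and 107700 to 109937 in Ins/Del. Of the 10, 6 were called higher and 3 lower in Ins/Ins, and 5 higher and 2 lower in Ins/Del. *Lin28a* was lower in both mutants, at −1.43 and −1.55 on the log2 scale, as was *Utf1*, at −0.48 and −0.72, and *Pou5f1* was lower in Ins/Ins alone. The shares of all tested genes called higher and lower were 29% and 29.4% in Ins/Ins and 30.6% and 31.9% in Ins/Del. The 10 fibroblast or feeder markers summed to 3349.8 to 3662 in control, 355 to 401 in Ins/Ins, and 400.6 to 449 in Ins/Del, and *Lum* had at most 1 read in every library. Of the 7 fibroblast or feeder markers tested, 6 were lower and *Thy1* was higher in both mutants, beside 26.7% and 25.6% of all tested genes. *Tagln* and *Acta2* made up most of the control sum. The 7 neural progenitor markers summed to 2564 to 2583, 433 to 473, and 403 to 443, with *Neurog2* and *Olig2* at 2 reads or fewer. Of the 4 tested, *Nes* and *Pax6* were lower in both mutants and the other two were not called. The 7 trophectoderm markers summed to 4836 to 5307, 2428 to 2591, and 1602.5 to 1667, and of the 6 tested 5 were lower in each mutant, with *Tfap2c* higher in Ins/Ins and lower in Ins/Del.

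In the lists of primitive endoderm and of mesoderm and primitive streak markers, few genes made up most of the sum. The 7 primitive endoderm markers summed to 371 to 399 in control, 210.4 to 271 in Ins/Ins, and 316 to 345.5 in Ins/Del. *Dab2* had means of 265, 104, and 109 normalized counts, and *Sox7*, which went the other way, had 22.2, 70.8, and 106. Of the 6 tested, *Dab2* and *Gata4* were lower in both mutants, *Sox7* was higher in both, and *Gata6*, *Sox17*, and *Pdgfra* were higher in Ins/Del and not called in Ins/Ins. The shares of all tested genes called lower and higher in both mutants were 26.7% and 25.6%. The 6 mesoderm and primitive streak markers summed to 246 to 280.4, 338 to 371, and 286 to 305. Of the 4 tested, *Eomes* was higher in both mutants, with means of 193, 322, and 271 normalized counts, and *T* was lower in both, with means of 44.6, 2.34, and 0.301. The part of these markers' changes in the results for the receptors was not tested.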

How the data were processed

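RNA-seq was analysed in 9 libraries of E14 ESCs, 3 each of control, *Rbbp4* Ins/Ins, and *Rbbp4* Ins/Del, grouped by their genotype labels. The authors prepared libraries with a Kapa mRNA HyperPrep kit, aligned paired-end reads to mm10 with STAR 2.7.3, and counted reads per gene with HTSeq, whose version, annotation, and strand setting are not given in the sources used here. The deposited values are raw counts per gene symbol. Totals lay between 15838064 and 21366868 counted reads, and 20953 symbols had at least 1 read. The per-gene chi-square between replicates was 1.87 to 4.62, above counting noise, so each library was kept as 1 replicate.

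From the counts, edgeR 4.0.16 (R 4.3.3) computed TMM factors (0.993 to 1.02), filtered genes with filterByExpr, which left 14125, and fitted the quasi-likelihood model to all 9 libraries with no covariate. P-values were adjusted by Benjamini-Hochberg over all 14125 genes and called at 0.01, the limit the study used with DESeq2. Each standard error (SE) was taken as |log2 fold change| over the square root of F, and intervals are 95%. Levels per kilobase used the union of GENCODE M21 exons on GRCm38, and promoters came from RefSeq on GRCm38.p6. The fit was tested on simulated data. Tables were made with Python 3.11.15 and pandas 2.3.3.

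The receptors and the lists of ephrins, pathway genes, and markers were chosen with earlier results of these data known. All 10 receptors are named, ephrins past the threshold, pathway genes past it and 2-fold in both mutants, and, for *Epha2* and *Epha4*, the 3 closest genes with a mean normalized count above 20. Outside this rule, the 4 pathway genes higher in both mutants were named after their values were seen. A gene counted as detected above 3 reads in any library of a line. Alternatives were DESeq2 1.42.0, its size factors in edgeR, scaling by total counts, no filter, only the groups compared, a replicate block, each library left out, an adjusted p limit of 0.05, testing against 2-fold rather than 0, and the longest transcript as length. Protein sequences were not used here.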

Additional observations from a re-analysis of the deposited data

Results flagged for a closer look

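Of the 9 tested receptors, *Epha2* and *Epha4* had effects that differed between the mutants by the direct test of Ins/Del against Ins/Ins. The log2 difference was 0.23 for *Epha2* (edgeR adjusted p = 1.3e-05), with Ins/Del higher in 3 of 3 libraries, and 0.39 for *Epha4* (edgeR adjusted p = 8.9e-12), with Ins/Del higher in 3 of 3 libraries.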

How the results depend on the processing

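Of 459 log2 fold changes of receptors recomputed under the alternatives, 434 kept their direction and their side of the threshold, 11 passed it newly, 9 lost it, and 5 changed sign. The sign changes were in differences near 0 that were not called. *Epha2* in Ins/Del against control ranged from −0.067 to 0.0155 with each library left out, and was above 0 without control library 1 (0.0101) and Ins/Del library 3 (0.0155). *Epha7* in Ins/Del against Ins/Ins ranged from −0.17 to 0.0455, and was above 0 without Ins/Ins library 1 (0.00046), Ins/Ins library 2 (0.0202), and Ins/Del library 2 (0.0455). All 9 losses came from the test against a 2-fold change. Under that test 1 receptor was higher and 2 lower in Ins/Ins, 1 higher in Ins/Del, and 0 higher between the mutants. Likewise, 3 ephrins were lower in Ins/Del and 0 higher between the mutants, and of the pathway genes 0 were higher and 1 lower in Ins/Ins, 0 higher and 3 lower in Ins/Del, and 0 higher and 0 lower between the mutants. With a limit of 0.05, 2 receptors, 1 ephrin, and 6 pathway genes were lower in Ins/Del against Ins/Ins, and with DESeq2 1 pathway gene was higher there. Between the mutants, leaving out each library in turn gave 0 to 1 receptors lower, 0 to 1 ephrins higher, and 1 to 3 pathway genes higher. The 1 receptor was *Ephb4*, without Ins/Del library 1, and no ephrin was higher without Ins/Ins library 1 or Ins/Del library 2. The cause of these shifts was not tested.

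Samples with the same replicate number had deviations that correlated at −0.0277 to 0.0559 over 9 pairs, so the numbers were not taken as pairing the libraries. With the replicate number as a block, *Ephb3* in Ins/Del against control passed the threshold, with 0.17 (edgeR adjusted p = 0.00919), and no other receptor's call changed. *Ephb3* also passed with DESeq2's size factors (0.18, edgeR adjusted p = 0.00806) and with only the groups compared (0.18, edgeR adjusted p = 0.00777). Low counts limit *Epha7*, *Epha8*, and *Ephb6*, and exon length limits the order of levels. With the longest transcript as length, *Epha7* had 1.16 per kilobase in control, above *Ephb6*, and the other shifts in level or share left *Epha2* first in every line.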

Other observations

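The files hold 4 more Eph receptor genes, *Epha5*, *Epha6*, *Epha10*, and *Ephb1*, and none had enough reads to be tested. *Epha10*, a receptor without kinase activity, had 2, 7, and 4 reads in the control libraries, 11, 12, and 8 in Ins/Ins, and 10, 9, and 15 in Ins/Del. *Ephb1* had 9, 7, and 2 reads in control, 17, 7, and 7 in Ins/Ins, and 6, 8, and 6 in Ins/Del. *Epha5* had at most 5 reads in any library, and *Epha6* at most 3.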
